A study of Mus musculus with 4 samples.

Results

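The noncollagenous cartilage proteins examined here were the products of 9 mouse genes, namely the matrilins Matn1, Matn2, Matn3 and Matn4, and Comp, Cnmd, Chadl, Ucma and Snorc. All 9 genes were chosen by name and were found among the 21581 protein-coding genes of the GRCm39 annotation. For each gene, all H3K27ac peaks were collected that overlapped the gene body or lay within 100 kb of its transcription start site. H3K27ac, a histone acetylation found at active promoters and enhancers, had been mapped by ChIP-seq in mouse fetuses at E14.5, in 4 populations obtained by cell sorting. These were EGFP+ cells of the limbs, EGFP- cells of the limbs, EGFP+ cells of the trunk and EGFP- cells of the trunk, with 1 library each. All fetuses carried the same homozygous Col2a1 EGFP sensor, a cassette with a minimal beta-globin promoter and EGFP placed upstream of the Col2a1 promoter, in embryonic stem cells of the G4 background, and were grown by tetraploid aggregation. The EGFP- fraction carried the sensor as well and held every limb or trunk cell type that did not express it, so it was a mixture and not a single cell type. All limb segments were included, and the trunk samples lacked the viscera.

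Chondrocytes build a matrix in which a collagen II fibril network holds aggrecan, and noncollagenous proteins link these parts. Matrilins are oligomeric adaptors with von Willebrand factor A domains that bind collagen fibrils and proteoglycans. COMP, a thrombospondin, brings collagen molecules together during fibril formation. Chondromodulin, encoded by Cnmd, is a membrane-anchored protein of avascular cartilage whose released part inhibits vessel growth. Chadl encodes a chondroadherin-like protein with leucine-rich repeats that acts on collagen fibril assembly, Ucma encodes a Gla protein secreted by chondrocytes, and Snorc encodes a transmembrane proteoglycan of cartilage whose gene is a target of SOX9.

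The 4 peak lists held between 30716 and 40899 intervals, of which 22833 were distal in the limb EGFP+ list and 17768 in the limb EGFP- list, and 19295 and 14231 in the corresponding lists of the trunk. Distal means outside every promoter window, which began 2 kb before a protein-coding start site and ended 500 bp after it. The median summit held 26 to 29 reads and the weakest called summit 7 or 8, on a library background of 1.49 to 1.83 reads per 200 bp. Among the chondrocyte markers, Acan and Fgfr3 had promoter peaks in both EGFP+ lists and in neither EGFP- list, Col2a1 lacked one in trunk EGFP- cells alone, and Sox9 had one in all 4 lists. None of the epithelial, endothelial and blood markers examined had a promoter peak in any list. Among 4 muscle markers, Myog had a single promoter peak, in limb EGFP+ cells. Of the connective tissue markers, Col3a1 had promoter peaks in all 4 lists, Dcn in the EGFP- lists alone and Kera in limb EGFP+ cells alone. Of the neuron markers, Elavl4 had them in all 4 lists and Tubb3 in trunk EGFP- cells alone. The limb libraries and the trunk libraries carry labels of separate lanes, and any difference between the tissues cannot be told apart from the lane. More cells with a mark and more mark per cell cannot be told apart either in sorted populations. With 1 library per population there was no replicate error, and no test was made between populations.

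The 9 loci held 309 peak intervals in the 4 lists. Of these, 31 overlapped a promoter window of the gene itself, 130 overlapped promoter windows of neighbouring genes alone, and 148 were distal. Promoter peaks in EGFP+ cells without one in EGFP- cells were found at 6 of the 9 genes in the limb, compared with 4.83% of all protein-coding genes. In the trunk this held for 7 of 9 genes, against 3.22% of all genes. When each list was limited to its 20000 intervals of highest −log10 p, it held for 5 of 9 in the limb and 4 of 9 in the trunk. The share of all genes at that limit was not computed, so these counts cannot be set against the shares given for the full lists. With the full lists, the same 6 genes met the criterion in both tissues, against 1.45% of all genes. These were Matn1, Matn3, Comp, Cnmd, Chadl and Snorc. The set changed with the settings. Matn1 no longer met the criterion in the trunk with a −log10 q of at least 5 or with 30000 intervals per list. Comp no longer met it in the trunk with a promoter window of 1 kb on each side. With 20000 intervals per list, Matn4, Comp and Chadl met it in both tissues. The opposite pattern, a promoter peak in EGFP- cells alone, was found at 0 of the 9 genes in either tissue, where 2.02% of all genes showed it in the limb and 3.31% in the trunk. The remaining genes each differed. Matn4 had a weak limb EGFP- peak beside strong EGFP+ peaks, Matn2 was marked in all 4 populations, and Ucma had no promoter peak in any list.

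The 200 bases upstream of the start site of Matn1, Matn3, Comp, Cnmd and Chadl, all marked in EGFP+ cells alone, are given below in the direction of transcription, to show what the promoters of this group look like. Capitals mark the SOX core letters, ACAANG or on the opposite strand CNTTGT. Coordinates are those of GRCm39.
Matn1, chr4:130670016-130670215, plus strand: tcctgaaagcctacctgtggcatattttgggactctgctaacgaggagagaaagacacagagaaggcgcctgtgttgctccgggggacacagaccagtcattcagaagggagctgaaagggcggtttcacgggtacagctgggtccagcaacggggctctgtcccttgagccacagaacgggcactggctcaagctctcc
Matn3, chr12:8997729-8997928, plus strand: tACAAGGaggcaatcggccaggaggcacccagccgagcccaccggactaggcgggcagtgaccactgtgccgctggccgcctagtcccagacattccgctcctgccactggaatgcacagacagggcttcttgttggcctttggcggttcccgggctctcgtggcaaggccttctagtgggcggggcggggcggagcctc
Comp, chr8:70825992-70826191, plus strand: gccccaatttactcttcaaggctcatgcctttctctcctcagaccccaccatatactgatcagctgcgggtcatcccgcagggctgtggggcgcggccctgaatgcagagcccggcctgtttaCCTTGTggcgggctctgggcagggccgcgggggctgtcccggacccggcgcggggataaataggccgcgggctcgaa
Cnmd, chr14:79899616-79899815, minus strand: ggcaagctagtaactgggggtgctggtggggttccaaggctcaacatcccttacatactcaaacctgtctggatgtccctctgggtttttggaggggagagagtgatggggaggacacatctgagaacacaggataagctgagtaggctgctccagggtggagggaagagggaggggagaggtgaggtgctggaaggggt
Chadl, chr15:81581543-81581742, minus strand: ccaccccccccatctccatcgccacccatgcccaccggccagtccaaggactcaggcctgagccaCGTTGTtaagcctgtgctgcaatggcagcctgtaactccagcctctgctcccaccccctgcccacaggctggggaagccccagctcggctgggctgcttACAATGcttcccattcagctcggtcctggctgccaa
The SOX core letters occurred in the sequences of Matn3, Comp and Chadl, with 2 occurrences at Chadl. They occurred in 3 of the promoters of all 9 genes, and in 30% of all promoter windows of this length. Sites facing each other, ACAANG, then 3 to 5 bases, then CNTTGT, occurred in 0 of the 9 and in 0.102% of all promoters. The palindrome of NFI factors, TTGGC, then 5 bases, then GCCAA, was in none of the 9 and in 0.0232% of all promoters. A match is a description of the letters, not of binding.

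Among the matrilins, Matn1, which encodes cartilage matrix protein, had 3 intervals overlapping its promoter windows in each EGFP+ list and none in either EGFP- list. The strongest held 49 reads in limb EGFP+ cells (95% exact Poisson interval 36.3 to 64.8, counting error only, as for all read intervals given here). In trunk EGFP+ cells it held 22 reads (13.8 to 33.3). By −log10 p, the limb peak stood at percentile 57.3 of its list, where 100 is the strongest peak, and the trunk peak at percentile 12.2. In both tissues these peaks were in the first part of the gene, with summits at 1586 bp from the first start site in the limb and 885 bp in the trunk.

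Matn3, mutated in a form of multiple epiphyseal dysplasia, had 3 promoter intervals in limb EGFP+ cells and 1 in trunk EGFP+ cells, again with none in EGFP- cells. The strongest held 48 reads in the limb (35.4 to 63.6) and 49 in the trunk (36.3 to 64.8). The percentile by −log10 p was 42.6 in the limb and 63.4 in the trunk. The local background that MACS2 used at the summit was 18.2 reads in the limb and 13.8 in the trunk.

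Matn4 had the tallest promoter peaks of the 9 genes. In limb EGFP+ cells the summit held 86 reads (68.8 to 106), in an interval of 1791 bp that was wider than 99.6% of the list, and in trunk EGFP+ cells the summit held 74 reads (58.1 to 92.9). The percentiles by −log10 p were 77.5 and 82.7. In limb EGFP- cells 1 interval with 9 reads (4.12 to 17.1) was called at percentile 1.76, close to the bottom of its list, and in trunk EGFP- cells none was called. This EGFP- interval, and some of the EGFP+ intervals, also overlapped the promoter window of Rbpjl, a neighbouring gene. The limb EGFP+ interval of 86 reads was among them. Such intervals cannot be assigned to Matn4 alone. The limb EGFP+ promoter interval that did not overlap the Rbpjl window held 80 reads (63.4 to 99.6) in 980 bp.

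Matn2, which is expressed in many tissues outside cartilage, showed the reverse order. Its strongest promoter summit held 9 reads in limb EGFP+ cells (4.12 to 17.1), 24 in limb EGFP- cells (15.4 to 35.7), 17 in trunk EGFP+ cells (9.90 to 27.2) and 30 in trunk EGFP- cells (20.2 to 42.8). The EGFP- value was the higher in each tissue, although the intervals of the reads overlapped in both. The percentiles were 4.77 and 67.5 in limb EGFP+ and EGFP- cells, and 47.3 and 67.8 in the trunk, each within its own list, and the lists differ in length.

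Comp had promoter peaks in EGFP+ cells of both tissues and none in EGFP- cells, but they stood away from the start site. The strongest summits were at −1729 bp in the limb, with 37 reads (26.1 to 51.0), and at −1582 bp in the trunk, with 36 reads (25.2 to 49.8). No interval of any list covered the Comp start site itself. The percentiles were 51.2 and 64.3. A further limb EGFP+ interval with its summit 0.943 kb downstream of the start site, in an intron of Comp, held 22 reads.

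At Cnmd the promoter interval held 51 reads in limb EGFP+ cells (38.0 to 67.1) and 44 in trunk EGFP+ cells (32.0 to 59.1). The percentiles were 47.1 and 43.1. The trunk interval was 1280 bp wide and its strongest summit was 1316 bp into the gene, against 602 bp and 594 bp in the limb. Chadl had the highest promoter percentiles among the 6 genes without EGFP- peaks, 83.2 in the limb and 80.4 in the trunk, with 64 reads (49.3 to 81.7) and 44 reads (32.0 to 59.1). Its intervals were 1370 bp and 1241 bp wide and covered the start site in both EGFP+ lists.

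Ucma was the single member without a promoter peak in any of the 4 lists. Snorc had 58 reads at its strongest summit in limb EGFP+ cells (44.0 to 75.0) and 34 in trunk EGFP+ cells (23.5 to 47.5). These summits were at different positions, 1891 bp from the first start site in the limb and 486 bp in the trunk. The limb summit lay outside the promoter windows, in a stretch of the gene that is also given below as an EGFP+-only region. The limb interval of 1686 bp ran through the first part of the gene and was wider than 99.3% of the list, at percentile 71.7 by −log10 p, and the trunk interval of 657 bp stood at percentile 44.1. No Snorc peak was called within the gene in either EGFP- list.

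**Figure D1:**
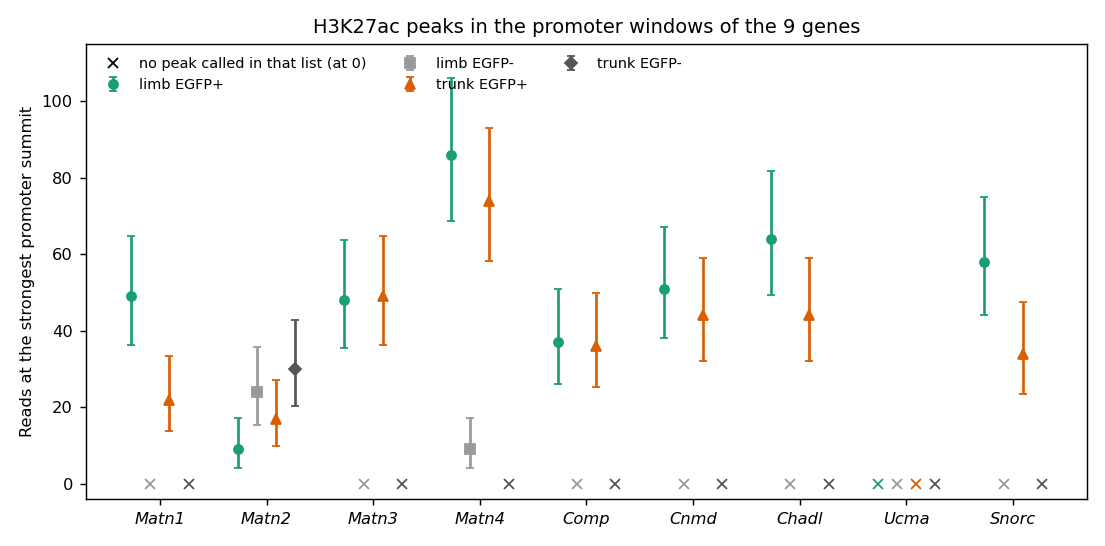
Reads at the strongest H3K27ac summit of the intervals that overlapped a promoter window of each gene (vertical axis), by list. Bars give the exact 95% Poisson interval, and crosses stand where no peak was called. The summit itself can lie outside the window, as at Cnmd and, in limb EGFP+ cells, at Snorc. Matn4 is highest with 86 and 74 reads in EGFP+ cells, Matn2 is higher in EGFP- cells, and Ucma has no point.

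How strong these promoter peaks ranked depended on the measure. The strongest interval by −log10 p was taken for each of the 8 genes with a promoter peak. Its median percentile by −log10 p was 54.3 in limb EGFP+ and 55.4 in trunk EGFP+ cells. These values were below the medians of 74.8 and 73.3 over all promoter intervals of the same lists. By the reads at the summit, the medians of these strongest intervals were 73.4 and 69.1, beside 73.4 and 71.6 over all promoter intervals. The reference takes every promoter interval and not the strongest of each gene. The sets are thus unlike, and the near values by reads do not show equal ranks. The local background at the strongest promoter summit of each member had a median of 13.6 reads in the limb and 9.34 in the trunk. All promoter intervals had 7.24 and 6.88. MACS2 takes this background from the reads surrounding a summit in the same library when no control library is used, and the weight of that step in the ranks was not tested beyond these values.

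**Figure D2:**
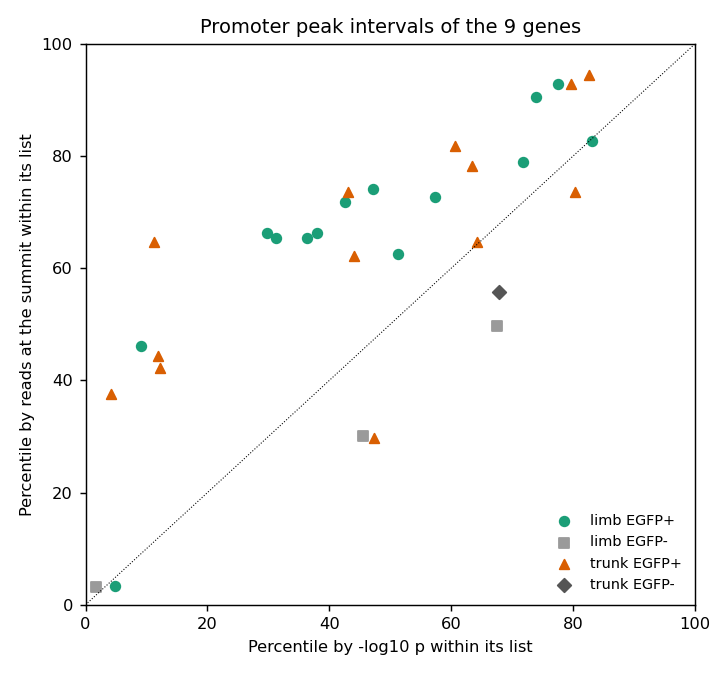
Each point is 1 promoter interval of the 9 genes, with its percentile by −log10 p (horizontal axis) and by reads at the summit (vertical axis) within its own list, where the dotted line marks equal percentiles. Most EGFP+ intervals lie above the line, and in limb EGFP+ cells the median of the strongest interval per gene was percentile 54.3 by −log10 p and 73.4 by reads.

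The share of the gene body covered by peaks was counted from the same peak intervals and is not a separate measurement. In limb EGFP+ cells the cover was 48.9% for Snorc, 17.0% for Matn4, 13.5% for Matn3, 11.7% for Matn1, 11.6% for Cnmd and 9.56% for Ucma. In trunk EGFP+ cells it was 44.0% for Snorc, 14.0% for Matn4 and 9.38% for Cnmd, and lower for the others. Chadl had 3.88% and 3.75% in the EGFP+ lists, and Comp had 2.82% in the limb and 0 in the trunk. In the EGFP- lists 0 was found for all members except Matn2 in both tissues, Matn4 in the limb with 3.85% and Cnmd in the trunk with 0.968%. Any cover was thus found at 2 of the 9 members in each EGFP- list, against 55.9% of all genes in the limb and 56.3% in the trunk. In the EGFP+ lists it was found at 9 and 8 members, against 58.7% and 56.8%. Matn2, whose gene is the longest of the 9 at 131 kb, had under 1% in all 4 lists. Its highest cover was 0.728% in limb EGFP- cells, above the 0.438% in limb EGFP+ cells. The median over the 9 genes was 11.6% and 6.15% in limb and trunk EGFP+ cells and 0 in both EGFP- lists, and over all protein-coding genes it was between 0.488% and 0.904%.

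Distal intervals showed the same order of the fractions. In the limb, the 9 loci held 65 distal intervals in the EGFP+ list and 23 in the EGFP- list. In the trunk they held 48 and 12. Every member had more EGFP+ than EGFP- distal intervals in both tissues, 9 of 9, where 35.6% of all genes did so in the limb and 36.4% in the trunk. When each interval was assigned to the nearest start site only, this held for 6 of 9 in the limb and 5 of 9 in the trunk, against 17.5% and 17.4% of all genes. With every list limited to its top 30000 intervals by −log10 p, it held for 6 of 9 in the limb, without Matn2, Comp and Chadl, and 8 of 9 in the trunk, against 23.2% and 25.7%. The counts in limb EGFP+ cells ranged from 2 at Chadl and Snorc to 11 at Matn1, Matn3 and Comp. In limb EGFP- cells they ranged from 0 at Chadl and Ucma to 7 at Comp. In trunk EGFP+ cells they ranged from 1 at Chadl to 9 at Cnmd, and in trunk EGFP- cells from 0 at Chadl, Ucma and Snorc to 4 at Comp. Comp and Matn4 lie in gene-rich regions, with 7 and 9 other genes starting within the window, so distal intervals there have several possible targets.

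**Figure D3:**
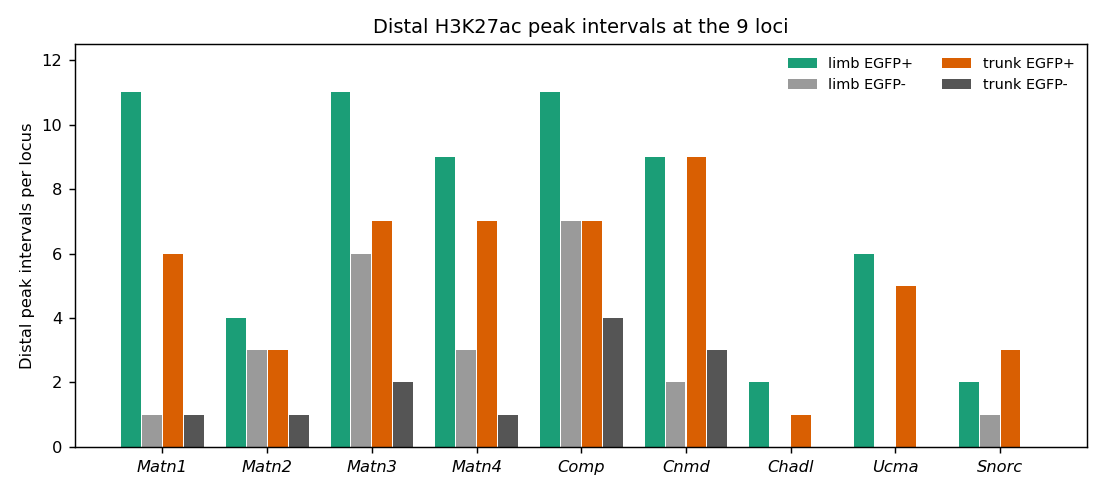
Bars give the number of distal H3K27ac intervals within 100 kb of the start site or in the body of each gene, for the 4 lists. The EGFP+ bar is taller than the EGFP- bar of the same tissue at all 9 genes, and Ucma and Chadl have no EGFP- bar.

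Joining distal intervals that had no overlapping interval of the opposite fraction in the same tissue gave 47 EGFP+-only regions at the 9 loci and 13 EGFP--only regions. EGFP+-only regions thus made up 78.3% of both kinds, against 57.5% in the whole genome. EGFP+ intervals of both tissues overlapped 22 of the 47 regions, 46.8% against 30.8% in the genome, while 19 had an EGFP+ interval in the limb alone and 6 in the trunk alone. At least 5 EGFP+-only regions were found at 6 of the 9 genes, against 13.3% of all genes. This count fell to 2 of 9 with a −log10 q of at least 5, against 3.76%, to 1 of 9 with 20000 intervals per list, against 1.05%, and to 2 of 9 with the nearest start site only, against 3.7%. Just inside this limit were Matn3 and Matn4 with 5, and just outside it Matn2 with 4. Comp had 8, Matn1 and Cnmd 7, Ucma 6, Chadl 3 and Snorc 2. The median was 5 per locus for the 9 genes and 1 for all protein-coding genes.

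**Figure D4:**
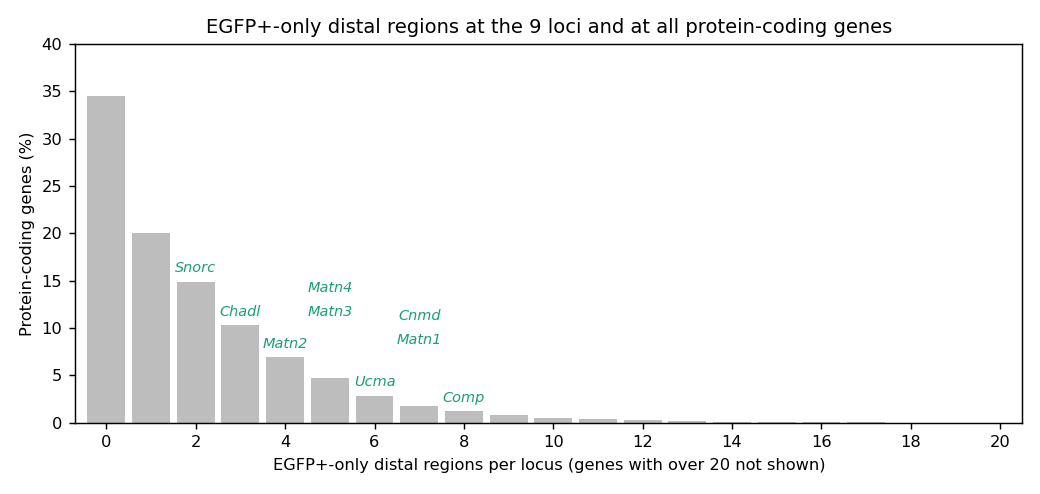
Grey bars give the percentage of protein-coding genes (vertical axis) with each number of EGFP+-only distal regions at their locus (horizontal axis), and gene names stand above the number found at each of the 9 loci. Comp, Matn1 and Cnmd lie farthest to the right with 8, 7 and 7 regions, and Snorc with 2 lies farthest to the left.

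The highest percentile of a region by −log10 p, taken from the limb or the trunk list of its fraction, had a median of 37.1 for the 47 EGFP+-only regions and 26.7 for all EGFP+-only regions of the genome. Above percentile 50 stood 17 of the 47, or 36.2%, against 16.3% in the genome. A region with peaks in both tissues has a pair of chances for a high value. Among those regions alone 15 of 22 stood above percentile 50, against 40.6% in the genome, and among those of a single tissue 2 of 25, against 5.43%. Of the 13 EGFP--only regions at these loci 0 stood above percentile 50, against 8.67% in the genome. The lists differ in length, so percentiles of the EGFP+-only and EGFP--only regions were not set against each other here. Percentiles given for both fractions of a gene or region hold within each list only. Summits of 11 of the 47 EGFP+-only regions fell in the body of the member gene, and for 18 the nearest protein-coding start site was that of the member. In all, 20 of the summits were intergenic, 24 were in introns and 3 in exons. The shares over all EGFP+-only regions of the genome were not computed for these positions, so the counts only describe the 47 regions.

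For 6 genes, the EGFP+-only region with the highest percentile had peaks in both EGFP+ lists and in neither EGFP- list. The 200 bases around its strongest summit are given for these genes on the plus strand of GRCm39, with the SOX core letters in capitals. The set was chosen for this pattern after the values were seen.
Matn1, chr4:130633418-130633617, plus strand: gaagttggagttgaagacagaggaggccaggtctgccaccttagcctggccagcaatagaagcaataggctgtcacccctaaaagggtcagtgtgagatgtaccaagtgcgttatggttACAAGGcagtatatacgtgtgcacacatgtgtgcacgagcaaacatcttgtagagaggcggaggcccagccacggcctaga
Matn3, chr12:9003977-9004176, plus strand: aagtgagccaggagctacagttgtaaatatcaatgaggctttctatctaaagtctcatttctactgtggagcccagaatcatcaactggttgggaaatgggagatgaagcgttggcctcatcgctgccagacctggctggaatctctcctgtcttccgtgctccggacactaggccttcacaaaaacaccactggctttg
Matn4, chr2:164228284-164228483, plus strand: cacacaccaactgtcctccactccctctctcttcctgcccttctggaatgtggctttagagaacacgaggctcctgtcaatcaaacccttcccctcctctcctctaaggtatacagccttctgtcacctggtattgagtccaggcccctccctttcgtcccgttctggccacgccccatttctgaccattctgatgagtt
Cnmd, chr14:79941013-79941212, plus strand: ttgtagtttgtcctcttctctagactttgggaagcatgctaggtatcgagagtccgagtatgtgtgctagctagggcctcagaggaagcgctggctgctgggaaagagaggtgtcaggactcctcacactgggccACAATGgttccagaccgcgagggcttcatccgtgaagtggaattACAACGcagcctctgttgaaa
Ucma, chr2:4962689-4962888, plus strand: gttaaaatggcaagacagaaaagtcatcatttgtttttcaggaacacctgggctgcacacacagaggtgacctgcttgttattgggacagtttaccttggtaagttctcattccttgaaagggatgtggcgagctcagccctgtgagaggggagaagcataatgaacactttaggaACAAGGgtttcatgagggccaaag
Snorc, chr1:87398961-87399160, plus strand: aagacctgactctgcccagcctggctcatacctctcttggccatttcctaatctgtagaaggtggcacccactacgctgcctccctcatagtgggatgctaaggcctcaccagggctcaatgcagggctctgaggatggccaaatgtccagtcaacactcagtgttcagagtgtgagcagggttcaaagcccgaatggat
The SOX core letters occurred in the windows of Matn1, Cnmd and Ucma, with 2 occurrences at Cnmd. In the corresponding windows of all 9 members they occurred in 3, which compares with 35.6% of all distal EGFP+ summits and 35.8% of EGFP+-only ones. Facing sites were in 0 of the 9 windows and in 0.147% of distal EGFP+ summits, and the NFI palindrome in 0 of 9 and 0.0214%.

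At Matn1, the strongest EGFP+-only region lay at chr4:130633257-130634641, with its summit at −36.7 kb from the start site in intergenic sequence. It held 43 reads in limb EGFP+ cells (31.1 to 57.9) at percentile 72.9, and in trunk EGFP+ cells 23 reads (14.6 to 34.5) at percentile 38.7. The region at chr4:130589141-130589964, at −80.5 kb, was found in limb EGFP+ cells alone, with 29 reads and percentile 56.6. A region at −64.5 kb, chr4:130605178-130606332, had percentiles 51.7 and 42.1 in the limb and trunk EGFP+ lists, from intervals at different summits. Directly beside it, at chr4:130606446-130607072, lay the EGFP--only region of the locus, with 20 reads in the limb and 19 in the trunk at percentiles 48.8 and 27.4. Neighbouring intergenic stretches were thus called in opposite fractions, with an EGFP+ stretch and an EGFP- stretch in both tissues. The nearest start site of these regions was that of Laptm5 or Sdc3, not of Matn1.

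At Matn3, the strongest EGFP+-only region was intragenic, at chr12:9003119-9005592 in an intron, with its summit 6.15 kb into the gene. It held 77 reads in limb EGFP+ cells (60.8 to 96.2) at percentile 68.6, and 48 in trunk EGFP+ cells (35.4 to 63.6) at percentile 51.8. A second intronic region 14.2 kb into the gene, chr12:9011009-9012277, was marked in limb EGFP+ cells alone, with 39 reads and percentile 52.7. At −91.6 kb, chr12:8906165-8906397 had a trunk EGFP+ peak at percentile 45.1 and also a limb EGFP- peak at percentile 15.7. It was therefore EGFP+-only in the trunk and EGFP--only in the limb. The highest EGFP--only region by percentile, at −62.9 kb and chr12:8934911-8935159, held 14 reads in the limb. An intergenic region at −33.8 kb, chr12:8962626-8964450, had peaks in all 4 lists at percentiles 57.2 and 77.4 in limb EGFP+ and EGFP- cells and 80.4 and 67.6 in the trunk.

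At Matn4, the region with the highest percentile lay at chr2:164228043-164228749 in an intron of Slpi, 18.7 kb downstream of the start site. It held 63 reads in limb EGFP+ cells (48.4 to 80.6) at percentile 70.5 and 36 in trunk EGFP+ cells (25.2 to 49.8) at percentile 27.1. The next regions were upstream. The region at −31.7 kb, chr2:164278106-164279500 in an intron of Sdc4, held 61 and 46 reads at percentiles 63.2 and 50.5. The region at −45.0 kb, chr2:164290896-164292452 in intergenic sequence, held 29 and 28 reads at percentiles 56.8 and 53.0. The trunk value was that of the interval chr2:164291277-164291591. The trunk interval that covered the limb summit held 20 reads at percentile 14.9. The EGFP--only region at −27.6 kb, chr2:164274554-164274786, held 22 reads in trunk EGFP- cells at percentile 36.0, and limb peaks were called there in both fractions.

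Matn2 again stood apart from the other matrilins. Its highest EGFP+-only region, chr15:34409590-34409833, lay 103 kb into the gene in an intron, in limb EGFP+ cells alone, with 17 reads (9.90 to 27.2) at percentile 47.1. A region 82.5 kb into the gene that included exonic sequence, chr15:34388942-34389229, held 8 reads in the limb and 13 in the trunk. The region at −67.0 kb, chr15:34239526-34239775, was called in trunk EGFP+ cells with 20 reads. The EGFP--only region with the highest percentile, at −7.71 kb and chr15:34298720-34299084, held 13 reads in the limb. The region with peaks in all 4 lists, chr15:34238829-34239405, lay in an intron of Laptm4b. It held 22 and 23 reads in limb EGFP+ and EGFP- cells and 27 and 17 in the trunk.

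At Comp, the strongest EGFP+-only region lay at chr8:70814949-70816006, with its summit at −10.4 kb. It held 47 reads in limb EGFP+ cells (34.5 to 62.5) at percentile 58.1. In trunk EGFP+ cells it held 28 reads (18.6 to 40.5) at percentile 26.6, in the interval chr8:70814949-70815305. The trunk interval that covered the limb summit held 25 reads at percentile 9.84. A limb EGFP- peak at percentile 33.5 overlapped the joined region. The region at 74.6 kb, chr8:70900188-70901386, held 19 and 20 reads in limb and trunk EGFP+ cells. The region at −6.50 kb, chr8:70819600-70819813, was called in the trunk alone with 35 reads. The limb EGFP+ list had 5 regions at Comp that the trunk EGFP+ list lacked, and 3 of them lay in introns of the neighbouring gene Crtc1. The EGFP--only region with the highest percentile, at 89.3 kb and chr8:70914722-70915616, held 22 reads in limb EGFP- cells at percentile 43.3. The region with peaks in all 4 lists and the highest percentile was chr8:70804215-70805363 at −21.0 kb, with 70 and 30 reads in limb EGFP+ and EGFP- cells and 51 and 44 in the trunk.

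Cnmd had the most regions shared between tissues, with EGFP+ peaks of both tissues at 6 of its 7 EGFP+-only regions. At chr14:79898020-79898700 the trunk EGFP+ peak was the promoter interval of Cnmd and not a distal one. The region chr14:79895510-79896830 was also overlapped by a trunk EGFP- peak at percentile 52.6. Its trunk EGFP+ peak free of that overlap stood at percentile 7.36. The strongest, chr14:79940205-79942509 at −41.5 kb, was 2305 bp long and held 57 reads in limb EGFP+ cells (43.2 to 73.9) and 53 in trunk EGFP+ cells (39.7 to 69.3) at percentiles 67.0 and 67.9. The region at −75.4 kb, chr14:79974341-79975218, held 15 reads in the limb and 27 in the trunk at percentiles 25.0 and 61.3. The region at −14.9 kb, chr14:79913741-79914848, held 47 reads in the trunk at percentile 65.0, and limb peaks of both fractions overlapped it. With the adjoining stretch up to chr14:79915644 it formed the part of the Cnmd locus with peaks in all 4 lists, with 66 and 19 reads in limb EGFP+ and EGFP- cells and 47 and 12 in the trunk. The single EGFP--only region, 99.3 kb downstream at chr14:79800091-79800435, held 11 reads in trunk EGFP- cells.

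Ucma was marked at a distance from its start site. Its strongest region, chr2:4961992-4964125 at −18.1 kb in intergenic sequence, was 2134 bp long. It held 56 reads in limb EGFP+ cells (42.3 to 72.7) at percentile 71.8. In trunk EGFP+ cells its strongest interval held 36 reads (25.2 to 49.8) at percentile 61.7, beside the limb summit. The trunk interval that covered the limb summit held 29 reads at percentile 44.5. The Ucma start site was the nearest protein-coding start. The other regions were weaker, with 23 reads in trunk EGFP+ cells at 11.3 kb, chr2:4992121-4992347, just beyond the end of the gene, and 16 reads in limb EGFP+ cells at −6.89 kb, chr2:4973876-4974138. No distal EGFP- interval was called at the Ucma locus in either tissue.

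Snorc, the shortest of the 9 genes at 5.43 kb, had an EGFP+-only region at chr1:87398901-87400895 within the gene. The strongest trunk EGFP+ summit, in an intron 1.29 kb from the start site, held 40 reads (28.6 to 54.5) at percentile 58.2. The limb EGFP+ summit, in an exon 2.68 kb from the start site, held 43 reads (31.1 to 57.9) at percentile 53.1. The limb promoter interval ran into this region. The other region, chr1:87324721-87324952 at −72.9 kb in an intron of Gigyf2, had EGFP+ peaks in both tissues but also a limb EGFP- peak at percentile 30.7. Chadl had the weakest distal marks. Its 3 EGFP+-only regions were each found in a single tissue, with 9 reads at chr15:81656605-81656834, 8 reads at chr15:81604520-81604772 and 11 reads at chr15:81657810-81658065, all within other genes and near the lowest called summit of 7 reads.

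**Figure D5:**
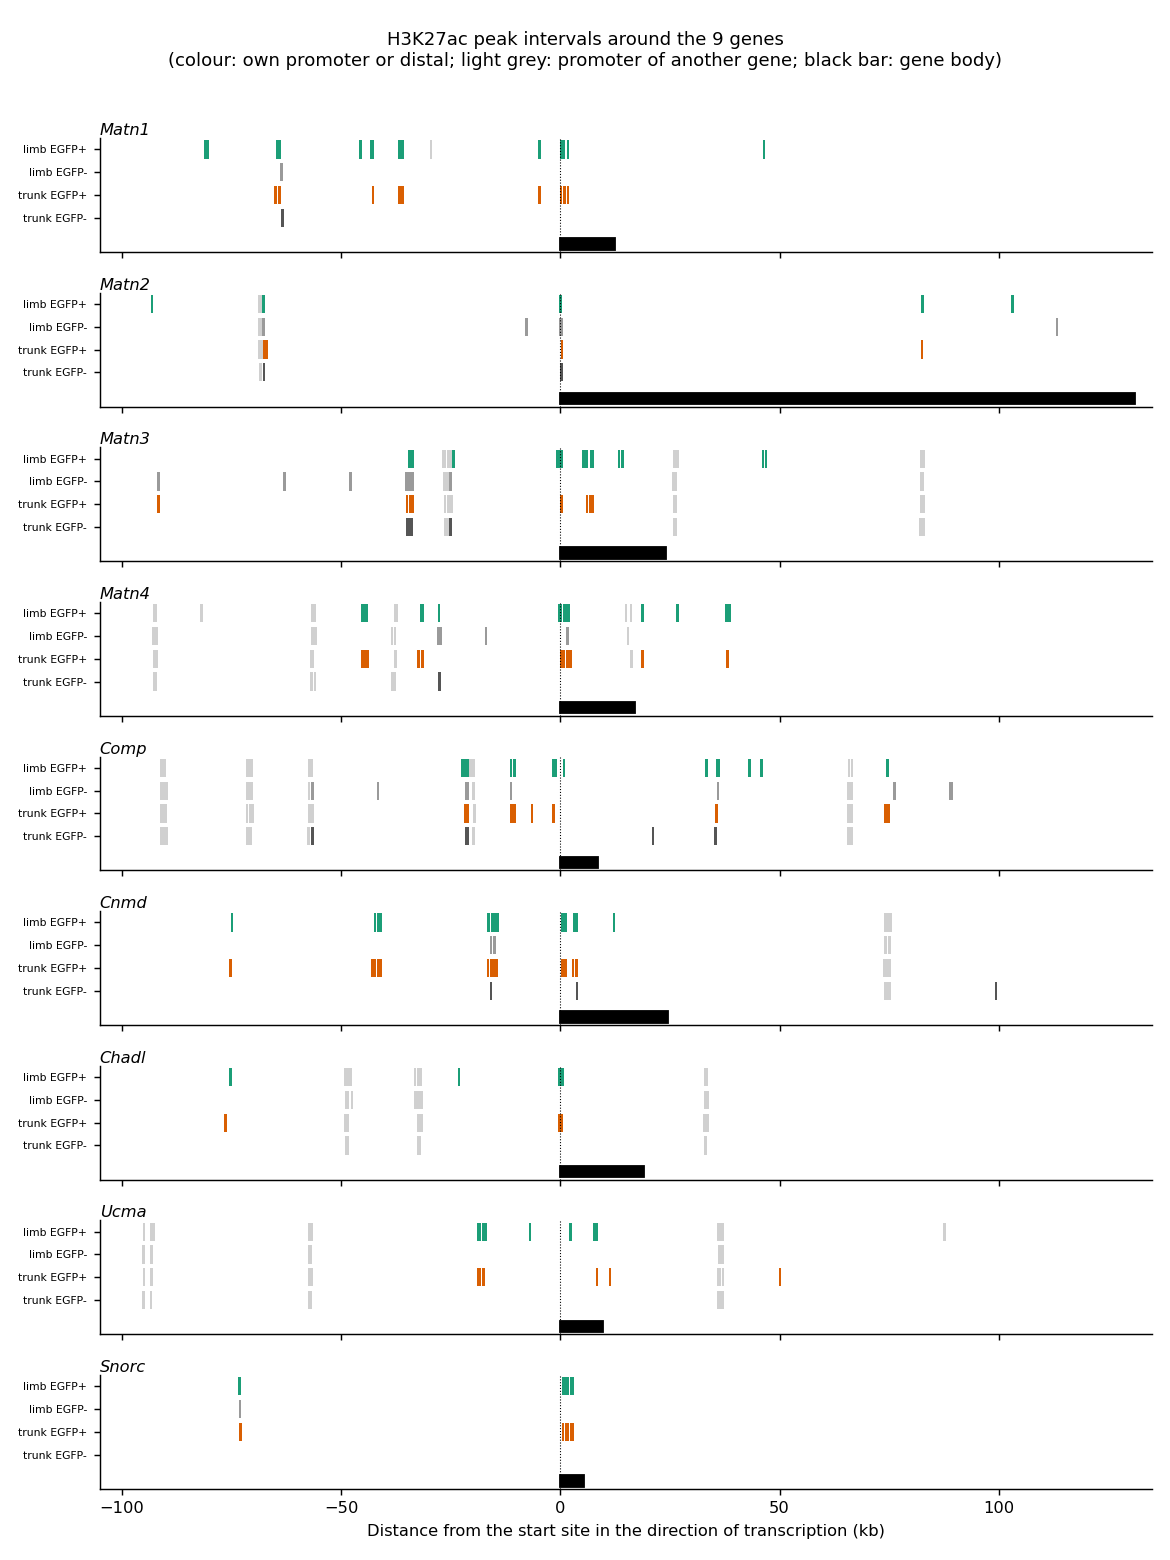
Peak intervals around the 9 genes by distance from the start site in kb (horizontal axis), with 1 row per list, own promoter and distal intervals in colour, intervals in promoters of other genes in light grey, and the gene body as a black bar. Intervals narrower than 0.6 kb are drawn at that width. Near the start sites of 8 of the 9 genes the EGFP+ rows are filled, and the EGFP- rows there are empty except at Matn2, Matn4 and Cnmd.

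The genes whose promoter percentiles over the 4 lists lay nearest to those of a member were named by the mean absolute difference over the 4 lists, with 0 for no peak. For Chadl these were Col9a1, at 0.816 percentile points, and Mia, at 1.31. For Matn4 they were C130050O18Rik, at 1.24, and Col9a1, at 1.63. Col9a1 encodes a chain of collagen IX, a collagen on the surface of cartilage fibrils. Matn1 was nearest to Uchl1 and Fgr, Matn2 to Gstm7 and Zfp811, Matn3 to Atp10a and Hrct1, Comp to Atp10a and Rasd1, Cnmd to Tor4a and Agt, and Snorc to Stk32b and Eif4e3. Between 15 and 77 genes lay within 5 points of each member other than Matn2, which had 1, so the nearest genes were not set apart from many others.

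The same criteria were applied to related genes. Among 8 relatives, Chad, the chondroadherin gene, and Vwa1, with a von Willebrand factor A domain like the matrilins, had promoter peaks in EGFP+ cells without EGFP- peaks in both tissues. The thrombospondin genes Thbs1, Thbs2 and Thbs3 and the Gla protein gene Mgp had promoter peaks in all 4 lists, and Thbs4 and the chondromodulin relative Tnmd had none. Among 10 partners in the cartilage matrix, 5 had promoter peaks in EGFP+ cells alone in each tissue. Of these, Col9a1, Col9a3, Col11a2 and Acan were shared by both tissues. Col2a1 was counted in the trunk only, with a limb EGFP- peak at percentile 18.9, and Col9a2 in the limb only, with a trunk EGFP- peak at percentile 0.334. Dcn, the decorin gene of connective tissue, had EGFP- peaks alone. Of the SOX factors of chondrocytes, Sox5 had promoter peaks in EGFP+ cells alone, and Sox6 and Sox9 in all 4 lists. The loci of Sox5, Sox6 and Sox9 held 32, 23 and 6 EGFP+-only regions, beside 2 to 8 at the 9 members. A locus includes the whole gene body, so a long gene is searched over more sequence. The counts were not scaled by locus length, so they do not compare the density of regions.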

How the data were processed

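H3K27ac peak lists of 4 populations were used, with groups taken from the sample labels. The authors sampled about equal numbers of reads per library, removed adapters with CutAdapt 1.18, mapped reads with Bowtie2 2.3.5.1 to GRCm39, and filtered them on mapping quality with SAMtools. The authors then ran MACS2 2.2.7.1 on each library alone, with a read extension of 200 bp. No control library and no q threshold are named in the sources used here. More than 1 read length is given without assignment to libraries. For trunk EGFP- cells, the replicate number inside the peak names is not that of the sample label, which was used. The deposited fold is the ratio of summit pileup to local background. The deposited −log10 p and −log10 q come from MACS2, and the deposited score is made from the −log10 q.

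Entries of identical start and end were treated as 1 interval, on chromosomes 1 to 19, X and Y. A promoter window spanned 2 kb before and 500 bp after each of 67388 start sites of protein-coding transcripts (GENCODE annotation, GRCm39). An interval that overlapped such a window was a promoter interval, and its strongest summit could lie outside the window. The EGFP+-only and EGFP--only intervals were those that shared not even 1 bp with the opposite fraction's intervals in that tissue. Such intervals were merged within 500 bp in a tissue and, where they overlapped, across tissues. For a region, the value of each list of its fraction is that of the strongest such interval. Limb and trunk values of a region can therefore come from different summits. Reads and local background at each summit were solved from the fold and the −log10 p, to within 0.001 for 100% of summits. Percentiles were taken within each list, and no value of a list was divided by that of another. The ranking by reads was added after the values were seen. On simulated data, the reads of 2436 of 2436 summits and the counts of 380 of 380 genes were recovered. The members and gene lists were chosen with earlier results of these data known. Regions named were, for each gene, up to 3 EGFP+-only regions, the 1 EGFP--only region and the region with peaks in all 4 lists with the highest percentile, and the regions at Chadl and the promoters of all 9 genes were given in full. The upstream sequence of Snorc is not reported here. The 2 genes nearest in promoter percentiles were named for each member with an EGFP+ promoter peak. Scripts ran under Python 3.11.15 with scipy 1.17.1, pandas 2.3.3, numpy 2.4.6 and matplotlib 3.10.9.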

Additional observations from a re-analysis of the deposited data

How the results depend on the processing

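The alternatives were a −log10 q of at least 5, the 30000 or 20000 intervals of highest −log10 p per list, windows of 50 or 200 kb, assignment of each interval to the nearest start site only, and other overlap, merging and promoter window rules. Of the counts over the 9 genes under these settings, 60 stayed within 1.5 times their value and 32 did not. With a −log10 q of at least 5, EGFP+-only regions fell to 27, those of both tissues to 13 and EGFP--only regions to 2, members with at least 5 EGFP+-only regions numbered 2, and the distal intervals were 35, 10, 27 and 6 in limb EGFP+, limb EGFP-, trunk EGFP+ and trunk EGFP- cells. With 30000 intervals per list, limb EGFP+ cells had 39 distal intervals. With 20000 intervals per list, 4 members had a trunk promoter peak in EGFP+ cells alone, regions were 22 EGFP+-only, 7 of both tissues and 5 EGFP--only, 1 member had at least 5 EGFP+-only regions, and distal intervals were 20, 10, 23 and 7. Windows of 50 kb gave 7 EGFP--only regions and 15 limb EGFP- intervals, and windows of 200 kb gave 34 EGFP--only regions, 50 limb EGFP- and 30 trunk EGFP- intervals. With the nearest start site only, 5 members had more EGFP+ than EGFP- distal intervals in the trunk, regions were 18 EGFP+-only, 10 of both tissues and 3 EGFP--only, 2 members had at least 5 EGFP+-only regions, and distal intervals were 25, 5, 20 and 4. Stricter limits leave fewer intervals and other windows change the sequence covered, by construction. Across 10 settings, EGFP+-only regions outnumbered EGFP--only regions in each setting at Matn1, Comp, Cnmd, Ucma and Snorc, in 6 at Chadl, which was equal in 4, in 9 at Matn3 and Matn4, with the reverse in 1, and in 7 at Matn2, equal in 2 and reversed in 1. The alternatives for the count of members with at least 5 EGFP+-only regions were added after the values were seen. No paired analysis was possible because the counts come from no test and the labels give every library the replicate number 1. With 1 library per population none was left out. An absent peak means fewer reads than a call needed, 7 or 8 at the lowest and more where the local background was higher, not the absence of H3K27ac.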
